A study of Mus musculus with 8 samples.

Results

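The genes described here are the 10 genes of arginine and polyamine metabolism around Arg2, which were Arg1, Arg2, Ass1, Asl, Oat, Odc1, Srm, Sms, Sat1 and Smox. They were taken by gene symbol from the 24594 genes of the deposited table, and all 10 had counts and passed the filter on low counts that left 12816 genes for testing. Arg2 was selected on its measured difference between the 2 cell fractions compared here, so its values in this comparison are a description, without a test.

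Arginase splits arginine into urea and ornithine. Ornithine is either turned into glutamate and proline or decarboxylated to putrescine, from which the polyamines spermidine and spermine are built. Polyamines bind nucleic acids and are needed for protein synthesis and growth, and the gland draws on arginine and proline for milk protein during lactation.

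RNA was sequenced from luminal epithelial cells of the mammary gland of wild-type virgin female mice, C57BL/6J by the labels (the methods of the study also name C57BL/6JRj), aged 12 to 20 weeks, the age range given for the mice of the study, which carried no transgene and received no treatment. Dissociated cells were stained with antibodies against CD45, CD31 and TER-119, which mark leukocytes, endothelial cells and erythroid cells, and sorted into a c-Kit high fraction, labelled luminal progenitor (LP), and a c-Kit low fraction of mature luminal cells, with 4 libraries each. The study separated these fractions by c-Kit, and the labels list EpCAM, CD49f and CD14 beside it. Libraries were made from 500 pg of RNA amplified as cDNA. The methods of the study call its RNA sequencing replicates biological, but state fewer per condition than the 4 libraries of each fraction. The labels do not say whether a library came from 1 animal or from pooled animals. The p-values therefore measure the spread between these libraries, which may be partly technical.

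The LP libraries held 5510863 to 7089597 counts on genes and the mature libraries 4410049 to 7791593. The sorted fractions carried the markers of their labels. The summed level of 4 progenitor markers (Kit, Cd14, Elf5 and Aldh1a3) was 13570 to 20040 CPM in LP and 243.7 to 966.2 CPM in mature libraries, where CPM is a gene's count after scaling of each library to a common total with TMM factors. The summed level of 5 mature luminal markers (Esr1, Pgr, Prlr, Areg and Foxa1) was 303.8 to 991.7 CPM in LP and 4215 to 5947 CPM in mature libraries. Prlr made up most of this sum, at 223.2 to 821.7 CPM in LP and 3875 to 5442 CPM in mature libraries. Esr1 and Areg overlapped between the fractions, though both passed edgeR's quasi-likelihood test (adjusted p = 0.00956 and 0.00783). Cd14 made up most of the progenitor sum, at 12140 to 18320 CPM in LP, and Kit encodes the protein that separated the fractions, so their levels are no finding. Elf5, which the sort did not use, was at 190.8 to 248.5 CPM in LP and 25.7 to 112.2 CPM in mature libraries, whereas Aldh1a3 did not pass (adjusted p = 0.0512, edgeR's quasi-likelihood test). Within the fractions, LP replicate 1 had the highest mature marker sum and mature replicate 3 the highest progenitor marker sum, and the results below are given also without these 2 libraries where that changes them.

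Across all genes, 3161 of 12816 passed an adjusted p-value of 0.05 in edgeR's quasi-likelihood test with Benjamini-Hochberg adjustment, which is 24.7%, split into 10.9% with the higher level in LP and 13.8% with the higher level in mature cells. Of the 9 members other than Arg2, 2 passed, Arg1 and Oat, both higher in mature cells, which is 22.2% and close to the share of all genes. The other 7 did not pass. The median log2 fold change of the 9, LP minus mature, was -0.33, beside 0.00 for all tested genes, and the median of its absolute value was 0.33, beside 0.55 for all tested genes. The 4 LP values lay wholly apart from the 4 mature values in 1 of the 9, Arg1, and in 29.5% of all tested genes. In bulk RNA, fewer cells of a type and less RNA per cell cannot be told apart.

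**Figure D1:**
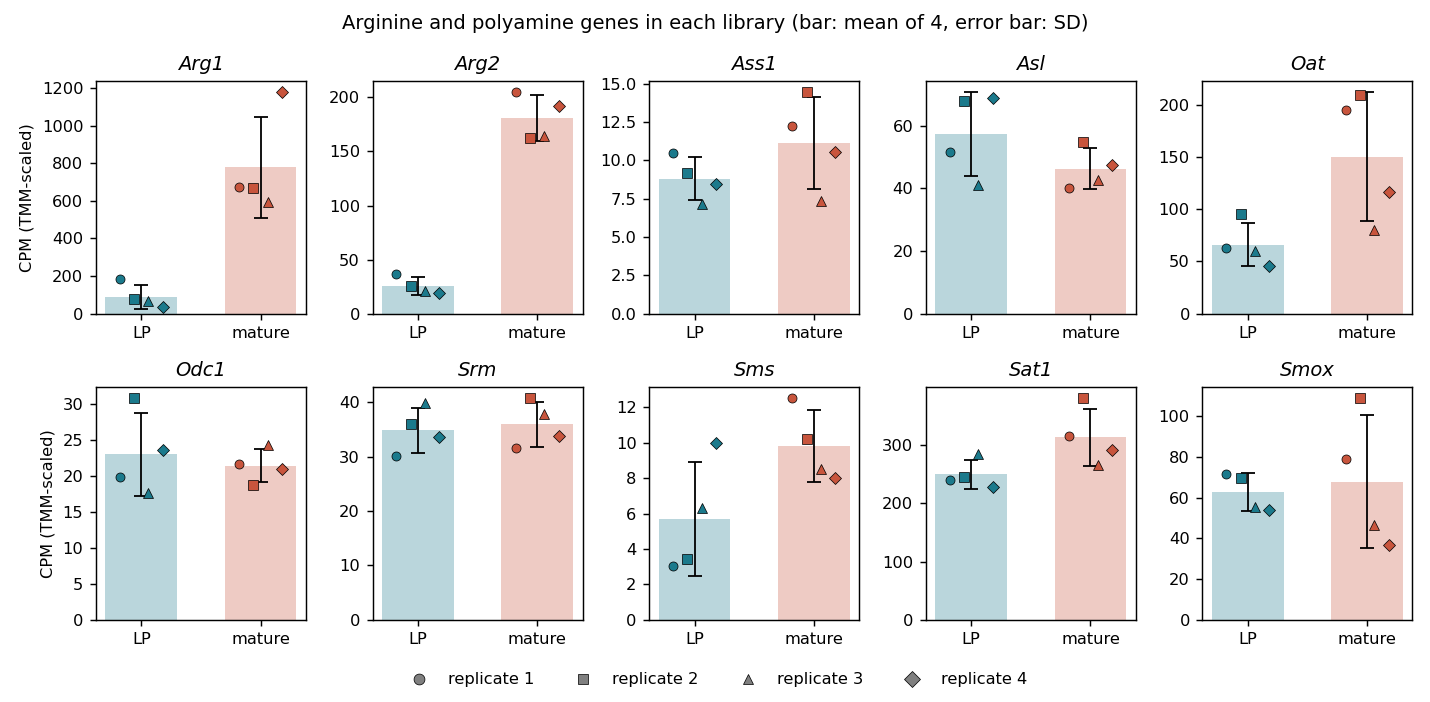
TMM-scaled CPM of the 10 members in the 4 LP and 4 mature libraries, with a bar for the mean, an error bar for the SD and a marker shape for each replicate number; each panel has its own axis from 0. In Arg1 and Arg2 every mature library lies above every LP library, Oat is higher in mature cells but overlaps, and the other 7 overlap.

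Arg2 encodes the mitochondrial arginase, found in many tissues outside the liver, and lies on the plus strand of chromosome 12 at 79130788 to 79156301 (GRCm38, the build called mm10). It measured 37.0, 25.3, 20.9 and 19.1 CPM in LP replicates 1 to 4 and 204.9, 162.9, 163.9 and 192.0 CPM in mature replicates 1 to 4. The lowest mature library was thus several times the highest LP library. Relative to the mean, the spread was wider in LP than in mature cells. The mean was 25.6 ± 8.05 CPM in LP and 180.9 ± 20.9 CPM in mature cells (SD, n = 4 each), and the log2 fold change was -2.82. Without LP replicate 1 and mature replicate 3, it was -3.10. Exons of Arg2 overlap those of Vti1b and Gm48780 on the opposite strand over 401 bases, and 21.04% of the 51-base windows of its transcripts also occur in these genes. The library kit did not mark strand, so reads from these stretches cannot be told apart. Vti1b, which encodes a SNARE protein of vesicle fusion, was itself higher in mature cells, at 131.1 ± 27.3 CPM in LP and 204.8 ± 22.4 CPM in mature cells (log2 fold change -0.64 ± 0.18, SE; adjusted p = 0.0237, edgeR's quasi-likelihood test), a difference on the log2 scale well below that of Arg2. Its part in the counts of Arg2 was not tested.

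Arg1 encodes the cytosolic arginase, the last enzyme of the urea cycle in liver, and lies on the minus strand of chromosome 10 at 24915207 to 24927470. It measured 182.7, 76.1, 65.9 and 35.7 CPM in LP replicates 1 to 4 and 675.4, 668.0, 591.9 and 1179 CPM in mature replicates 1 to 4. The mature libraries all lay above the LP libraries, with mature replicate 4 far above the other mature libraries and LP replicate 1 highest in LP. The mean rose from 90.1 ± 64.1 CPM in LP to 778.6 ± 269.7 CPM in mature cells (SD, n = 4 each), a fold of 8.64. The log2 fold change was -3.11 ± 0.46 (SE) with a 95% interval from -4.13 to -2.09 (adjusted p = 0.00122, edgeR's quasi-likelihood test with Benjamini-Hochberg adjustment). The fold was larger without LP replicate 1, with a log2 fold change of -3.71 (adjusted p = 0.000626, the same edgeR test). None of the 51-base windows of Arg1 transcripts occurs in another gene.

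Arg1 is also known as a gene of macrophages, so markers of other cell types were read beside it. The sum of 7 macrophage markers was 41.8 to 57.9 CPM in LP and 12.3 to 49.1 CPM in mature libraries, and most of it was Cd68. C1qa was at 0 in all 8 libraries, Ptprc, the leukocyte antigen CD45, reached at most 0.28 CPM and Adgre1 (F4/80) at most 1.96 CPM. Only Csf1r and Cd68 of these markers passed the filter on low counts, and neither passed the test. The sum of 5 lymphocyte markers was at most 0.29 CPM, that of 3 endothelial markers 3.05 to 8.48 CPM in LP and 0.98 to 8.08 CPM in mature libraries, and that of 2 erythroid markers 1.87 to 84.2 and 6.04 to 65.5 CPM. The sum of 7 basal cell markers was 4.02 to 17.5 CPM in LP and 7.09 to 49.4 CPM in mature libraries, highest in mature replicates 3 and 4. Acta2, one of them, was higher in every mature library than in any LP library, at 1.54 ± 1.33 CPM in LP and 8.52 ± 6.25 CPM in mature cells (SD, n = 4 each). Krt14 was at 2.04 ± 0.76 CPM in LP and 7.54 ± 7.92 CPM in mature cells (SD, n = 4 each), with overlap. Krt5, Myh11, Trp63 and Mylk also had the higher mean in mature cells, with overlap. Only Oxtr went the other way, at 7.4 ± 4.5 CPM in LP and 0.79 ± 1.59 CPM in mature cells (SD, n = 4 each). Of the 7 basal markers, only Krt14, Acta2 and Oxtr passed the filter on low counts. None of these passed edgeR's test (adjusted p = 0.1025 for Krt14, 0.0784 for Acta2 and 0.106 for Oxtr). The part of the markers of other cell types in the level of Arg1 was not tested.

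Arg1 made up 65.1 to 83.1% of the summed Arg1 and Arg2 CPM in LP libraries and 76.7 to 86.0% in mature libraries, so the ranges overlapped. Scaled to length, as CPM per kilobase of GENCODE exon, Arg1 was at 61.0 ± 43.4 in LP and 527.1 ± 182.5 in mature cells, and Arg2 at 17.9 ± 5.64 and 126.7 ± 14.7 (SD, n = 4 each).

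The length-scaled levels ordered the 10 genes differently in the 2 fractions. In mature cells Arg1 ranked first, Sat1 took place 2 at 264.7 ± 41.7 CPM per kilobase, Arg2 place 3 and Oat place 4 at 69.8 ± 28.8, and none of these 4 overlapped its neighbour in the order. Srm, Smox and Asl followed with overlapping ranges. Odc1 and Ass1 came next and overlapped each other, and Sms was lowest at 2.64 ± 0.55 CPM per kilobase. In LP cells Sat1 ranked first at 210.8 ± 20.5 CPM per kilobase and did not overlap Arg1. From Arg1 through Oat, Srm, Smox and Asl to Arg2 and Odc1, each gene overlapped the next, with Arg2 in place 7. Ass1 and Sms were lowest again, at 5.20 ± 0.82 and 1.53 ± 0.86 CPM per kilobase, and did not overlap their neighbours.

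**Figure D2:**
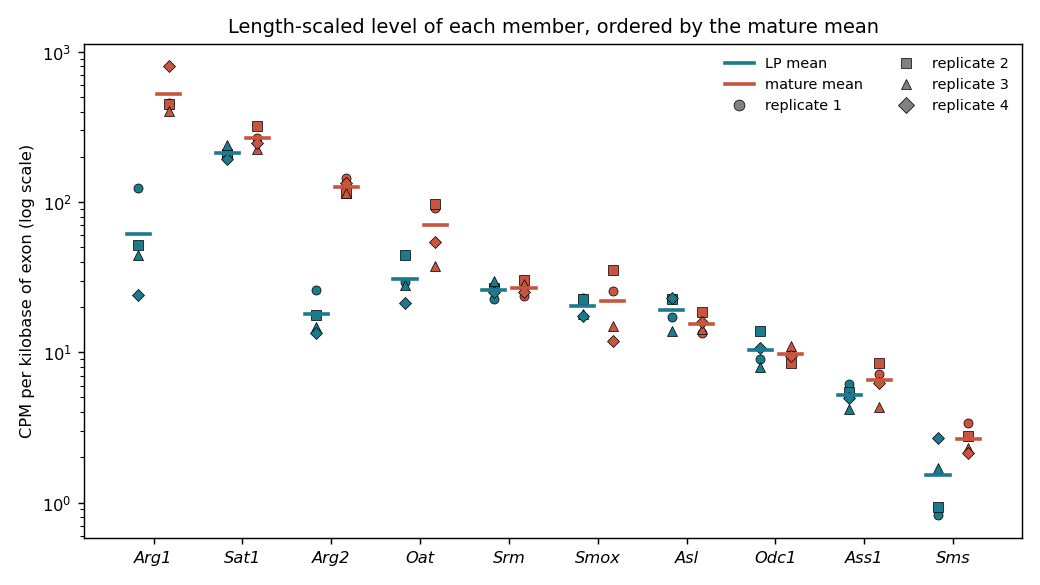
Level of each member in CPM per kilobase of exon on a log axis, ordered by the mature mean, with a point for each of the 4 LP and 4 mature libraries and a line for each mean. Arg1 and Arg2 show the widest gap between the fractions, and Arg2 moves from place 7 in LP to place 3 in mature cells.

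Ass1 encodes argininosuccinate synthase and Asl argininosuccinate lyase, which together make arginine from citrulline. Ass1 was low, at 10.5, 9.20, 7.14 and 8.46 CPM in LP replicates 1 to 4 and 12.2, 14.5, 7.36 and 10.6 CPM in mature replicates 1 to 4. The fractions overlapped, and the log2 fold change of -0.33 had a 95% interval from -1.10 to 0.43 (adjusted p = 0.522, edgeR's quasi-likelihood test). Of the 51-base windows of Ass1, 38.4% also occur in the pseudogene Gm5424, which the table lists with 5.06 ± 1.62 CPM in LP and 6.09 ± 1.16 CPM in mature cells (SD, n = 4 each), so the level of Ass1 is uncertain. Asl measured 51.6, 67.9, 41.0 and 68.7 CPM in LP replicates 1 to 4 and 40.1, 54.9, 42.7 and 47.5 CPM in mature replicates 1 to 4. Here too the fractions overlapped, with a log2 fold change of 0.31 and a 95% interval from -0.15 to 0.77 (adjusted p = 0.31, the same edgeR test).

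Oat encodes ornithine aminotransferase, the mitochondrial enzyme that carries ornithine towards glutamate and proline. It measured 63.2, 95.6, 59.9 and 46.1 CPM in LP replicates 1 to 4 and 194.9, 209.3, 80.4 and 116.5 CPM in mature replicates 1 to 4. Mature replicates 1 and 2 were highest, and mature replicate 3 lay below LP replicate 2. The mean was 66.2 ± 20.96 CPM in LP and 150.3 ± 61.9 CPM in mature cells (SD, n = 4 each), 2.27-fold higher in mature cells, with a log2 fold change of -1.18 ± 0.32 (SE), a 95% interval from -1.89 to -0.48 and an adjusted p of 0.0211 in edgeR's quasi-likelihood test. The call was lost when LP replicate 1, 3 or 4 or mature replicate 1 or 2 was left out, with adjusted p-values of 0.0574, 0.0579, 0.0634, 0.0591 and 0.0626 in the same edgeR test. The sum of 4 fibroblast markers, mostly Dcn, was also highest in mature replicates 1 and 2, at 134.4 and 173.1 CPM, beside 20.6 to 20.8 CPM in the other mature libraries and 7.35 to 37.9 CPM in LP. Only Dcn was itself highest in mature replicates 1 and 2, whereas Pdgfra, Col1a1 and Col3a1 were not. Col1a1 did not pass the filter on low counts. None of the other fibroblast markers passed edgeR's test, with an adjusted p of 0.0675 for Dcn. The part of the fibroblast markers in the level of Oat was not tested.

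Promoters of the named genes were searched for short motifs, to describe the sequence at their starts. The windows are the 250 bases before a RefSeq transcript start in GRCm38.p6, and 6 of the 10 members had one, namely Ass1, Oat, Odc1, Sms, Sat1 and Smox. The 5 motifs were searched on both strands, and none of them contains another. The E-box CACGTG was found in 6.02% of all 32851 promoter windows of this length. The cyclic AMP response element TGACGTCA was found in 1.55% of them. An amino acid response element, TGATGNAA, was in 3.45% of windows. The short steroid receptor half-site AGAACA was in 16.1%. A GATA motif, GATAAG, was in 6.55%. The window of Oat, the member with both a promoter entry and a call (minus strand, chr7:132576399-132576648), held none of them, and that of Ass1 (plus strand, chr2:31470020-31470269), which did not pass the test, held an E-box. Both are shown 5′ to 3′ with the match in capitals.
Oat: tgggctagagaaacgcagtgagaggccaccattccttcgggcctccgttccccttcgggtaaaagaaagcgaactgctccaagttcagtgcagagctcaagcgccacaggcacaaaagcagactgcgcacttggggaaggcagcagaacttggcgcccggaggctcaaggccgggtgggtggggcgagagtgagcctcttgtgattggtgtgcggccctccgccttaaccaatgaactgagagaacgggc
Ass1: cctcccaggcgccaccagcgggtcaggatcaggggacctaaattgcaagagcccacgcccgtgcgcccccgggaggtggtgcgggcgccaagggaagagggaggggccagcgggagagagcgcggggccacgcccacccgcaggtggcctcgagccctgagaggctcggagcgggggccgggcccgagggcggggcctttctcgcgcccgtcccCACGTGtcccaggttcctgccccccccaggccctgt
The E-box of Ass1 began 36 bases before the transcript start. Sms held an E-box 196 bases before one of its starts, and Sat1 a half-site at 191 bases. Odc1 and Smox held none of these letters in their windows.

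Odc1 encodes ornithine decarboxylase, the enzyme that makes putrescine and is mainly controlled through its protein turnover. It measured 19.9, 30.8, 17.6 and 23.6 CPM in LP replicates 1 to 4 and 21.7, 18.7, 24.3 and 20.9 CPM in mature replicates 1 to 4. The fractions overlapped fully, and the log2 fold change was 0.10 with a 95% interval from -0.45 to 0.65 (adjusted p = 0.80, edgeR's quasi-likelihood test). Pseudogenes share 24.0% of its 51-base windows.

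Srm and Sms encode spermidine synthase and spermine synthase, each of which adds an aminopropyl group. Srm measured 30.1, 35.9, 39.8 and 33.6 CPM in LP replicates 1 to 4 and 31.5, 40.7, 37.8 and 33.8 CPM in mature replicates 1 to 4. The fractions overlapped almost fully, and its difference was the nearest to 0 of the 10 genes, with a log2 fold change of -0.04 and a 95% interval from -0.46 to 0.37 (adjusted p = 0.893, edgeR's quasi-likelihood test). Sms was low and more variable, at 3.05, 3.45, 6.31 and 9.99 CPM in LP replicates 1 to 4 and 12.5, 10.2, 8.52 and 7.99 CPM in mature replicates 1 to 4. LP replicate 4 reached into the mature range, and the log2 fold change of -0.78 had a 95% interval from -1.80 to 0.24 (adjusted p = 0.247, the same edgeR test). These values rested on 21 to 89 counts a library, the lowest of the 10 genes, and 17.4% of the windows of Sms occur in another gene.

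Sat1 and Smox act in the other direction. Sat1 encodes the acetyltransferase that marks spermidine and spermine for export or breakdown, and Smox encodes spermine oxidase. Sat1 measured 240.2, 245.7, 284.0 and 227.7 CPM in LP replicates 1 to 4 and 315.8, 380.1, 264.8 and 291.7 CPM in mature replicates 1 to 4. Only mature replicate 3 lay within the LP range, but the log2 fold change of -0.33, with a 95% interval from -0.68 to 0.03, did not pass the test (adjusted p = 0.162, edgeR's quasi-likelihood test). Smox measured 71.4, 69.7, 55.5 and 54.1 CPM in LP replicates 1 to 4 and 78.9, 108.7, 46.6 and 36.8 CPM in mature replicates 1 to 4. The mature libraries spanned the LP range on both sides, with a log2 fold change of -0.11 and a 95% interval from -0.79 to 0.57 (adjusted p = 0.833, the same edgeR test).

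The levels in LP libraries were also read as a percentage of the mature mean. Arg1 stood at 23.5, 9.77, 8.46 and 4.58% in LP replicates 1 to 4, and Arg2 at 20.5, 14, 11.6 and 10.6%. Prlr, the prolactin receptor, stood at 18.1, 8.98, 7.18 and 4.91%, and Pgr, the progesterone receptor, at 24.4, 14.4, 7.52 and 6.70%. LP replicate 1 was highest in 4 of the 5 mature luminal markers, all but Areg, and in Arg1, Arg2, Slc7a2 and Glul. Oat was highest in LP replicate 2, at 63.6%, and Aldh18a1 in LP replicate 4, at 34.2%. Of the luminal keratins also higher in mature cells, Krt8 and Krt18 were lowest in LP replicate 1, Krt18 at 30.5%. Krt19 was lowest in LP replicate 2 and highest in LP replicate 3. What part mature cells within the LP sort had in these levels was not tested.

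**Figure D3:**
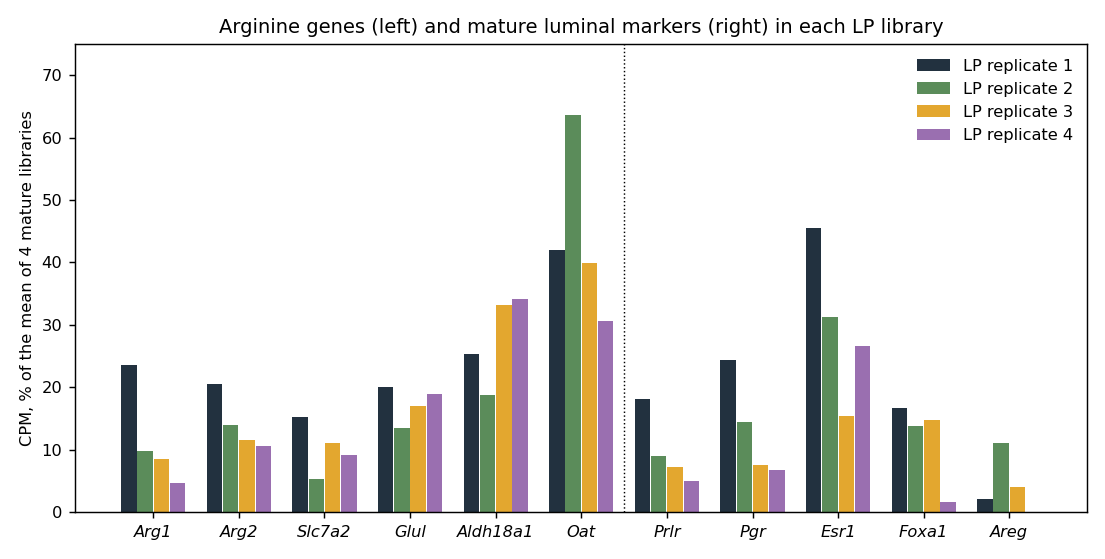
CPM of 6 arginine genes (left of the dotted line) and 5 mature luminal markers (right) in each LP library, as a percentage of the mean of the 4 mature libraries. LP replicate 1 is highest for Arg1, Arg2, Slc7a2, Glul, Prlr, Pgr, Esr1 and Foxa1. Oat is highest in LP replicate 2, at 63.6%, and Aldh18a1 in LP replicate 4, at 34.2%.

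The genes with the pattern most like Arg2 were found by Pearson's r of log2 CPM over the 8 libraries. These were Cldn10 (r = 0.994), Prlr (0.994), Gm7008 (0.992), Qsox1 (0.990) and Tlcd4 (0.990). Prlr, for example, lay at 223.2 to 821.7 CPM in LP and 3875 to 5442 CPM in mature libraries. After each fraction's mean was subtracted, Evi5 (0.966), Pgr (0.952) and Prlr (0.949) were nearest. Among the members Arg1 came closest over the 8 libraries, with r = 0.98 and place 53 of 12815 genes. Oat followed with 0.782, Sat1 with 0.68, Sms with 0.56 and Ass1 with 0.54. For Smox r was 0.03, for Srm 0.02, for Odc1 -0.17 and for Asl -0.52. After subtraction of the fraction means, r was 0.89 for Arg1, 0.44 for Ass1, 0.28 for Oat and 0.17 for Smox. It was -0.05 for Odc1, -0.12 for Sat1, -0.21 for Asl and -0.71 for both Sms and Srm. The 8 points fall into the 2 fractions and share library, depth and sort with every other gene, so these values describe the libraries.

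Beyond the members, a list of 52 other genes of arginine and polyamine metabolism was examined. All 52 were in the table, 41 passed the filter on low counts and 11 did not. Of the 41, 10 passed edgeR's quasi-likelihood test at an adjusted p-value of 0.05, which is 24.4% beside 24.7% of all tested genes, 7 of them higher in mature cells and 3 higher in LP. The other 31 did not pass, and the median log2 fold change of the list was -0.11.

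The enzymes at the entry of the urea cycle were at or near 0. Nags and Cps1, which start the cycle, had a mean of 0.00 CPM in LP and at most 0.04 CPM in mature cells, and Otc, which joins ornithine to carbamoyl phosphate, 0.30 and 0.32 CPM. None of these 3 passed the filter on low counts. The nitric oxide synthases Nos1, Nos2 and Nos3 also did not pass it, with Nos2 highest at a mean of 1.97 CPM in LP and 2.004 CPM in mature cells. These means came from few libraries, with 0, 18, 0 and 38 counts in LP replicates 1 to 4 and 57, 0, 0 and 0 in mature replicates 1 to 4.

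Slc7a2, a carrier of arginine and other cationic amino acids across the cell membrane, was the pathway gene with the widest difference. It measured 39.6, 13.7, 28.7 and 24.0 CPM in LP replicates 1 to 4 and 275.1, 214.3, 219.1 and 335.7 CPM in mature replicates 1 to 4. No LP library came near the mature range, and the means of 26.5 ± 10.8 and 261.1 ± 56.9 CPM (SD, n = 4 each) gave a log2 fold change of -3.30 ± 0.31 (SE; adjusted p = 0.000218, edgeR's quasi-likelihood test). The related carrier Slc7a1 was low and overlapped, with a log2 fold change of -1.01 and a 95% interval from -2.13 to 0.12 (adjusted p = 0.175, the same edgeR test). Slc3a2, the heavy chain shared by several amino acid carriers, had -0.42 with an adjusted p of 0.122 in that edgeR test. Of the 7 tested transport genes, only Slc7a2 passed, which is 14.3% beside 24.7% of all tested genes. Ddah1, which breaks down methylated arginine, was 1.92-fold higher in mature cells, at 161.7 ± 15.6 CPM in LP and 310.5 ± 63.8 CPM in mature cells (SD, n = 4 each).

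Around glutamate, ornithine and proline, 3 of 8 tested genes passed, which is 37.5% beside 24.7% of all tested genes. Of these, 2 were higher in mature cells and 1 was higher in LP. Glul, glutamine synthetase, measured 239.6, 161.3, 201.4 and 224.9 CPM in LP replicates 1 to 4 and 1620, 1411, 675.2 and 1056 CPM in mature replicates 1 to 4. Mature replicate 3 was the lowest mature library and still above every LP library (log2 fold change -2.53 ± 0.28, SE; adjusted p = 0.000374, edgeR's quasi-likelihood test). Of the 51-base windows of Glul, 12.28% also occur in other genes. Aldh18a1, which makes the precursor of proline and ornithine from glutamate, measured 196.6, 145.5, 257.7 and 265.8 CPM in LP replicates 1 to 4 and 542.2, 738.1, 1149 and 683.8 CPM in mature replicates 1 to 4. Here mature replicate 3 was the highest, the reverse of its place in Glul and Oat (log2 fold change -1.85 ± 0.27, SE; adjusted p = 0.00118, the same edgeR test). Prodh, proline dehydrogenase, which degrades proline, was higher in LP, at 75.9 ± 16.2 CPM beside 46.3 ± 7.43 CPM (SD, n = 4 each), with a log2 fold change of 0.72 and an adjusted p of 0.0242 in that edgeR test. The call of Prodh was lost without LP replicate 2, 3 or 4 or mature replicate 1, at adjusted p-values of 0.0518, 0.0522, 0.076 and 0.0534.

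Among the genes that supply aminopropyl groups and salvage methionine, 3 of 9 tested passed, which is 33.3% beside 24.7% of all tested genes. Mat2a and Mtap had more in LP and Amd2 had more in mature cells. Mat2a, the enzyme that makes S-adenosylmethionine in tissues outside the liver, measured 53.0, 37.4, 51.6 and 31.5 CPM in LP replicates 1 to 4 and 17.4, 15.5, 17.8 and 11.3 CPM in mature replicates 1 to 4, 2.79-fold higher in LP without overlap (log2 fold change 1.48 ± 0.25, SE; adjusted p = 0.00248, edgeR's quasi-likelihood test). Of the 51-base windows of Mat2a, 14.05% also occur in other genes, and its exons overlap those of Particl on the opposite strand over 508 bases. Mtap, which salvages methionine from the by-product of spermidine and spermine synthesis, measured 20.2, 18.8, 18.6 and 31.9 CPM in LP replicates 1 to 4 and 3.66, 3.94, 7.94 and 1.36 CPM in mature replicates 1 to 4. It was 5.27-fold higher in LP (log2 fold change 2.40 ± 0.49, SE; adjusted p = 0.00559, the same edgeR test), and without mature replicate 3, the library with the most progenitor marker RNA, the log2 fold change was 2.95. The mature libraries held 26, 15, 55 and 9 counts, so the fold of Mtap rests on few mature counts. The LP libraries alone were enough to take it past the filter. Amd1 and Amd2 encode S-adenosylmethionine decarboxylase in near-identical copies that share 77.9% and 85.4% of their 51-base windows with other genes, so their counts are uncertain. Amd2 was 1.82-fold higher in mature cells (adjusted p = 0.0399, edgeR's test), while Amd1 had a log2 fold change of -0.65 that did not pass (adjusted p = 0.123), and without mature replicate 3 Amd1 passed as well, with -0.83 and an adjusted p of 0.0252. The call of Amd2 was lost when any library other than LP replicate 1 or mature replicate 3 was left out, with adjusted p-values from 0.063 to 0.11.

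The promoter windows of Aldh18a1 (minus strand, chr19:40588464-40588713), higher in mature cells, and of Mtap (plus strand, chr4:89137120-89137369), higher in LP, are shown because each held a match to one of the motifs searched, in capitals.
Aldh18a1: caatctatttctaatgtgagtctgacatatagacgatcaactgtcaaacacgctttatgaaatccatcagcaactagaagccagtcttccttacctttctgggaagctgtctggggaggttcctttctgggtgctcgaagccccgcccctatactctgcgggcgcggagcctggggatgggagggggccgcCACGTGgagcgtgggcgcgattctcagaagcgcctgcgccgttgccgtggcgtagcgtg
Mtap: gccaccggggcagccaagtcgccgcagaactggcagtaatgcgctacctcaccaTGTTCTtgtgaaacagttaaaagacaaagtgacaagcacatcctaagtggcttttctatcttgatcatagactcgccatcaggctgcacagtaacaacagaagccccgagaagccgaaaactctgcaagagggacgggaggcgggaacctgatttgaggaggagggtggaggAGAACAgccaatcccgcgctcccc
The E-box of Aldh18a1 began 59 bases before the transcript start. Mtap held half-sites at 196 bases, on the minus strand, and at 24 bases. The windows of Glul, Mat2a and Prodh held none of the 5 motifs. Over the 21 named genes with a window, the E-box was in 4 (Aldh18a1, Ass1, Eif5a and Sms), the half-site in 3 (Mtap, Sat1 and Slc7a1) and the GATA motif in 1 (Aoc1), and the other motifs were in none. Genes with several starts had several windows, so these counts are not on the scale of the shares of all windows.

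The last genes of the list control, break down, carry or use polyamines. Oaz1 and Azin1, the antizyme and the antizyme inhibitor that set the turnover of ornithine decarboxylase, had log2 fold changes of 0.26 and -0.04. None of the 5 tested genes of that group passed, beside 24.7% of all tested genes. Oaz1 did not overlap, at 304.8 to 366.3 CPM in LP and 245.3 to 302.7 CPM in mature libraries, but its adjusted p was 0.214 in edgeR's quasi-likelihood test. Of the 51-base windows of Oaz1, 20.84% also occur in other genes. Paox, the oxidase of acetylated polyamines, had a log2 fold change of 0.21, and 28.35% of its windows also occur in other genes. Aoc1, diamine oxidase, which degrades putrescine, measured 10.6, 10.6, 1.00 and 0.00 CPM in LP replicates 1 to 4 and 59.5, 93.8, 17.6 and 14.6 CPM in mature replicates 1 to 4, higher in mature cells (log2 fold change -3.04 ± 1.00, SE; adjusted p = 0.0477, edgeR's quasi-likelihood test). The LP libraries held 73, 74, 6 and 0 counts and the mature libraries alone were enough to take Aoc1 past the filter, so its call carries little weight, and without it 9 pathway genes passed. Mature replicates 1 and 2 were highest, as for Oat and Dcn, and the call was lost when any library other than mature replicate 3 or 4 was left out, with adjusted p-values from 0.059 to 0.138. Atp13a3, a polyamine transporter, was 2.25-fold higher in mature cells, at 37.8 ± 11.6 CPM in LP and 85.0 ± 17.3 CPM in mature cells (SD, n = 4 each; adjusted p = 0.00545, edgeR's quasi-likelihood test). Eif5a, the translation factor that carries hypusine, a residue made from spermidine, and Dhps, which makes it, had log2 fold changes of 0.23 (adjusted p = 0.305) and -0.47 (adjusted p = 0.172) in the same edgeR test.

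**Figure D4:**
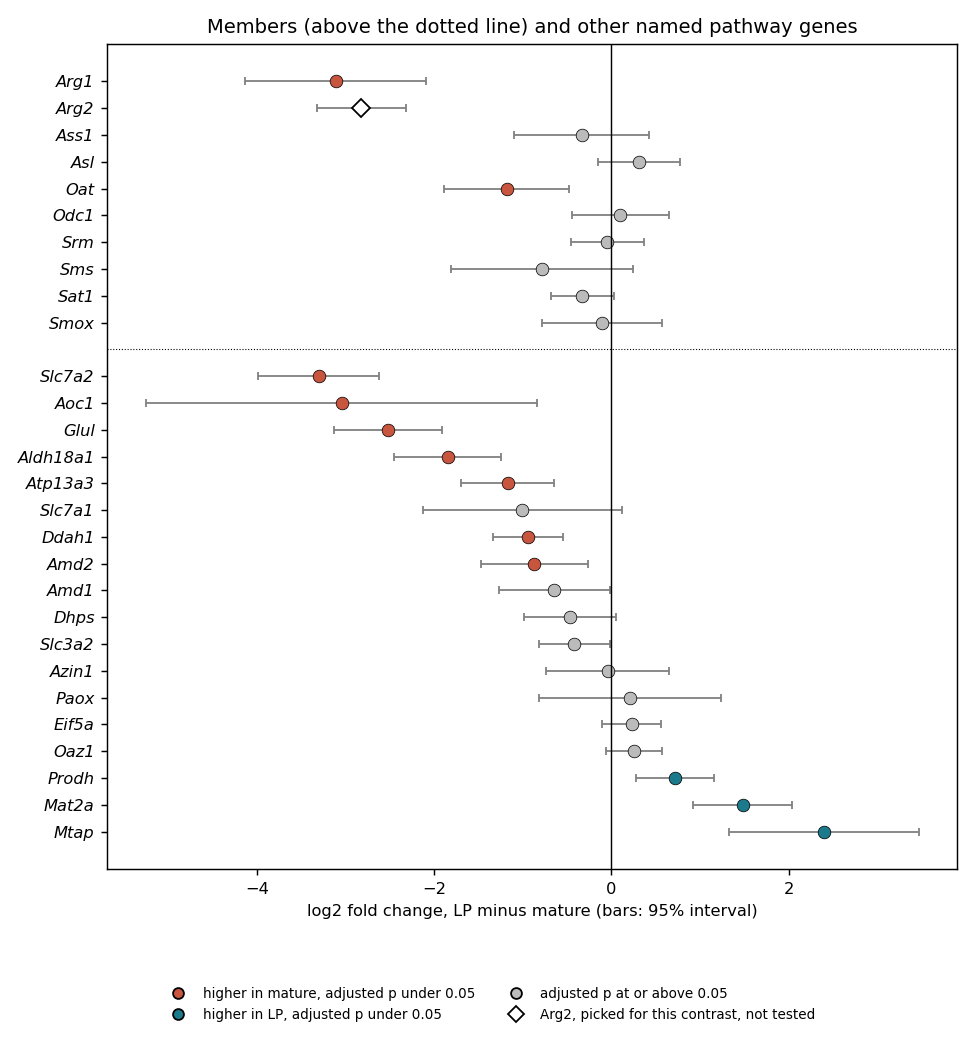
Log2 fold change (LP minus mature, x axis) of the 10 members above the dotted line and of the other 18 named pathway genes below it, with 95% intervals from edgeR's quasi-likelihood fit. Points left of 0 are higher in mature cells, and colour marks an adjusted p under 0.05. Arg2, picked for this contrast, is an open diamond without a test, and its interval does not allow for that choice.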

How the data were processed

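Reads of 51 bases were trimmed by the authors (cutadapt 4.2) and mapped to mm10 (Bowtie2 2.3.5.1, versions per the submitters' processing notes), and the authors deposited raw counts per gene, listed by Entrez Gene ID and not normalized. How reads were counted, on which annotation and with what rule for multi-mapping reads is not given in the sources used here, and the libraries carried no molecular identifiers. Of 24594 IDs, 24570 matched a RefSeq symbol.

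All 8 libraries were compared with edgeR 4.0.16 (R 4.3.3): TMM factors, filterByExpr by fraction, and the quasi-likelihood test with Benjamini-Hochberg adjustment over 12816 genes, without a block. The biological coefficient of variation was 0.393. Intervals are 95% from the fitted SE. Levels per length used GENCODE M21 exons. The script was tested on simulated data. Replicates of 1 fraction differed beyond counting noise (chi-square per degree of freedom 12.6 to 95.7 over 12 pairs).

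The members and lists were chosen with earlier results of these data known. Named were all members, pathway genes that passed, 9 key pathway genes whatever their values (Slc7a1, Slc7a2, Slc3a2, Oaz1, Azin1, Amd1, Paox, Eif5a and Dhps), and the 5 and 3 genes most correlated with Arg2. Genes below the filter were named after their values were seen. The 21 alternatives included RLE and upper-quartile factors, other filters, DESeq2 1.42.0, edgeR's exact and likelihood ratio tests, a replicate block, and libraries left out.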

Additional observations from a re-analysis of the deposited data

Results flagged for a closer look

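In 2 of the 56 sets of 4 libraries examined for the named genes, 1 library lay apart from the other 3 beyond Dixon's 95% limit for 4 values, where chance gives about 2.8 (1 in 20). Arg1 in mature replicate 4 was 1179 CPM, beside 591.9 to 675.4 CPM in the other mature libraries, and the gap was 0.858 of the range. Without that library the log2 fold change of Arg1 was -2.81 (adjusted p = 0.0034, edgeR's quasi-likelihood test). Mtap in LP replicate 4 was 31.9 CPM, beside 18.6 to 20.2 CPM in the other LP libraries, and the gap was 0.881 of the range. Without that library the log2 fold change of Mtap was 2.18 (adjusted p = 0.0208, the same edgeR test).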

How the results depend on the processing

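Arg1 stayed higher in mature cells and past the threshold in all 21 alternatives, with log2 fold changes from -3.83 to -2.57, and Arg2 ranged from -3.10 to -2.66. Slc7a2, Glul, Aldh18a1, Ddah1, Atp13a3 and Mat2a passed in all 21, and Mtap in the 20 that tested it. Oat kept its direction in all 21 and passed in 14, Prodh in 14 of 21, Amd2 in 10 of 21 and Aoc1 in 8 of the 20 that tested it, the losses including upper-quartile factors (Aoc1, adjusted p = 0.0507), no filter (Amd2, 0.0707; Aoc1, 0.0597) and DESeq2 (Aoc1, 0.073). The filter of at least 10 counts in every library removed Aoc1 and Mtap. Odc1, Srm, Smox, Azin1 and Paox changed sign and never passed. Left-out libraries or pairs gave 1615 to 3414 called genes (3161 with all), the lowest without the pair of replicate 2, 1 to 2 called members and 7 to 12 called pathway genes. The number of called genes was 3791 in DESeq2 and 2917 without the filter, with 9 and 8 pathway genes. Scalings moved the median log2 fold change of all genes by at most 0.03.

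Label numbers join each LP library to 1 mature library but are not said to mark an animal. Same-numbered libraries correlated at 0.113, 0.0618, 0.148 and 0.0844 after subtraction of the fraction means, where each had to exceed 0.1 to count as a pair, so the numbers were not taken as pairs. All 4 LP libraries and 3 of the 4 mature libraries correlated best with their own number, a hint of pairing from the data, and mature replicate 2 correlated best with LP replicate 1. With the replicate block, 3027 genes passed, 2757 of them shared with the unblocked fit, 2 members and 9 pathway genes, and among the named genes only the call of Amd2 changed (adjusted p = 0.0809). The fit without LP replicate 1 and mature replicate 3 was added after the data had been seen. It called 2633 genes, 2 members and 12 pathway genes. Counting error limits Sms and Ass1 most among the members, with at most 89 and 87 counts in a library.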
